A study of Mus musculus with 6 samples.

Results

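The genes described here are Pdcd1, which encodes the receptor PD-1, and Cd274 and Pdcd1lg2, which encode its ligands PD-L1 and PD-L2. They were taken by gene symbol, and all 3 were present among the 21720 symbols of the expression table. H22 cells, a mouse hepatocellular carcinoma line, were grown as subcutaneous tumours in female BALB/c mice aged 6 to 8 weeks, and both groups carried the genotype label WT. The control group (3 libraries) was gavaged daily over 21 days with 0.2 mL of 0.5% carboxymethyl cellulose sodium, the vehicle. The luteolin group (3 libraries) received 200 mg/kg luteolin, a plant flavonoid, in the same volume and on the same schedule, from a tumour volume of about 50 mm3. The methods give 4 mice a group but do not state that each library came from its own mouse, so p values measure the spread between these libraries, which may be technical. Whole tumours were sequenced, so that a change in the number of cells of a type and a change in RNA per cell cannot be told apart.

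PD-1 is an inhibitory receptor that activated T cells place on their surface. When PD-L1 or PD-L2 binds it, its tail recruits the phosphatases SHP-2 and SHP-1, and signalling from the T-cell receptor and from CD28 is dampened. PD-L1 can be made by tumour cells and by many leukocytes and is induced by interferon-γ through JAK kinases and IRF1, whereas PD-L2 is largely confined to dendritic cells and macrophages and is induced by interleukin-4 through STAT6 and by GM-CSF. In tumours this axis is a known brake on cytotoxic T cells and the target of PD-1 inhibitors.

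The sequences before the start sites are shown because all 3 mRNAs were higher in the luteolin group and their inducers bind known motifs. All 3 genes matched the RefSeq promoter table (GRCm38.p6). The bases just after the RefSeq start were found in 1 of 1 GENCODE transcripts of Pdcd1, 0 of 1 of Cd274 and 1 of 2 of Pdcd1lg2. Pdcd1 lies on chromosome 1 (minus strand, chr1:94052554-94052803 for the bases shown). Cd274 (plus strand, chr19:29367188-29367437) and Pdcd1lg2 (plus strand, chr19:29410669-29410918) are neighbours on chromosome 19, with 0 protein-coding genes between them. Each line gives the 250 bases before the start, 5′ to 3′ on the strand of the gene, and capitals mark matches to the searched motifs.
Pdcd1: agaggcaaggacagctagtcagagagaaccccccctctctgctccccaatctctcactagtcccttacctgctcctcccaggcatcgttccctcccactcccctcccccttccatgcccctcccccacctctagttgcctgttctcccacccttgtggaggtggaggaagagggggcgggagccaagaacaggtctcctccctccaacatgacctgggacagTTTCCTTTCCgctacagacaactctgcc
Cd274: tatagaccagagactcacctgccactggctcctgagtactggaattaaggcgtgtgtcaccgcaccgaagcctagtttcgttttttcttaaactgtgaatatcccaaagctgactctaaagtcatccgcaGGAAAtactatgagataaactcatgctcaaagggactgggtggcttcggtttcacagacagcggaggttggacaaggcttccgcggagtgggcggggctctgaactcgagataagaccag
Pdcd1lg2: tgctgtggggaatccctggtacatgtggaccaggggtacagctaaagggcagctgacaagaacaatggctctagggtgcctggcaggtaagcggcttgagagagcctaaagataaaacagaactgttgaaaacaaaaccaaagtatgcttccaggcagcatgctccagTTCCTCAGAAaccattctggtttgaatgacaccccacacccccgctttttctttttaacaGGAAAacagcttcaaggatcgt
The motifs were searched on both strands, and only exact matches were counted, so sites that differ by a base were missed. The NFAT core GGAAA was found 2 times for Pdcd1, side by side on the opposite strand, and 1 time each for Cd274 and Pdcd1lg2, but 55.6% of the 32851 promoters of this length hold it. The STAT6 element (TTC, any 4 bases, GAA) was found in the Pdcd1lg2 promoter, where it begins 82 bases before the start, and 5.85% of promoters hold it. The IRF element (GAAA, any 2 bases, GAAA), the GAS element TTCNNNGAA, the NF-κB element (GGG, any 2 bases, TTTCC) and the AP-1 element TGANTCA had 0 matches in these windows, against 2.98%, 7.02%, 1.41% and 6.75% of all promoters. The end of the NF-κB element contains the NFAT core on the other strand, and the matches marked here do not overlap each other.

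Total counts ranged from 61081637 to 80442954 per library, and 14963 genes passed the filter on low counts. Values are CPM, in which counts are scaled to a common library size with edgeR's TMM factors, unless stated otherwise. At an adjusted p under 0.05 (edgeR's quasi-likelihood test, Benjamini-Hochberg), 200 genes were higher and 28 lower in the luteolin group, and with offsets for GC content and gene length the split was 670 and 680. The study's own threshold, an unadjusted p under 0.05 with a fold change over 2, gave 1687 and 227 genes in edgeR's test. In DESeq2, the tool the study used, it gave 2004 and 282. In a check of the hepatocellular carcinoma label, the hepatocyte markers Trf and Afp were present (294 to 347 and 43.4 to 66.7 CPM in the control libraries). Alb was at 3.06, 60.3 and 0.868 CPM and Ttr at 0, 0.201 and 0 CPM in control replicates 1, 2 and 3. In luteolin replicates 1, 2 and 3, Trf was at 122, 125 and 283 CPM and Afp at 32.7, 41.8 and 38.8 CPM. Both lay below every control (adjusted p = 0.219 and 0.187 in edgeR's test), as did 12.8% of all tested genes. The other tested hepatocyte genes overlapped between the groups. Genes of skin keratinocytes summed to 378, 8660 and 21.2 CPM in luteolin replicates 1, 2 and 3, against 14.4 to 18.6 CPM in the controls, with 7 of 11 listed genes, Krt14 among them, at 0 counts in all control libraries.

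All 3 genes of the axis were higher in the luteolin group, by 4.12-fold for the receptor, 3.66-fold for PD-L1 and 2.97-fold for PD-L2. In each case every luteolin library lay above every control library, which held for 15.9% of all tested genes. Both ligands reached an adjusted p under 0.05, as did 1.34% of tested genes in this direction, and the receptor did not. All 3 passed the study's threshold, which 11.3% of tested genes passed in this direction.

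The receptor gene Pdcd1 had 0.687, 1.67 and 1.89 CPM in control replicates 1, 2 and 3. It had 5.37, 6.19 and 5.95 CPM in luteolin replicates 1, 2 and 3. The luteolin libraries were close to each other and the lowest of them was 2.84-fold above the highest control, while control replicate 1 was well under the other controls. The means were 5.83 ± 0.419 and 1.42 ± 0.641 CPM (SD, n = 3 each). The log2 fold change was 2.04 (standard error 0.46, 95% interval 0.94 to 3.14, adjusted p = 0.0845 by the edgeR test). Pdcd1 was a scarce transcript, and only 22.5% of tested genes had a lower mean. Its 48 counts in control replicate 1 have an exact 95% Poisson interval of 35.4 to 63.6 counts. Of the values from 1 to 40 in the table, 44.8% are multiples of 4 and 70.3% are multiples of 4 or 1 above, and if 1 read pair is worth 4 counts, that value rests on 12 pairs, with an interval of 0.355 to 1.2 CPM. The lowest luteolin value, 5.37 CPM, then has an interval of 4.27 to 6.67 CPM. These intervals cover counting error only. DESeq2 and limma's voom with sample weights gave log2 fold changes of 2.03 and 1.84 with adjusted p values of 0.000381 and 0.00572.

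The PD-L1 gene Cd274 had 25.5, 31.5 and 34.1 CPM in control replicates 1, 2 and 3. It had 121, 102 and 111 CPM in luteolin replicates 1, 2 and 3. The groups were separated by a factor of 2.98 between the nearest libraries, and replicates spread little, with a coefficient of variation of 14.5% among controls and 8.71% among luteolin libraries. Cd274 rose from 30.4 ± 4.39 to 111 ± 9.68 CPM (SD, n = 3 each), and its log2 fold change was 1.87 (standard error 0.17, 95% interval 1.47 to 2.28, adjusted p = 0.0292 in edgeR's test). It ranked 6 of 14963 genes by p and 1186 by fold change. The log2 fold change without luteolin replicate 2, in which the keratinocyte sum was highest, was 1.95. The adjusted p moved above 0.05 when a control library or luteolin replicate 1 was omitted (0.117 to 0.207 in edgeR's test), with log2 fold changes from 1.74 to 1.96. In each of these settings 0 genes were higher and 0 lower at an adjusted p under 0.05 over all tested genes. The loss of the call was therefore not particular to Cd274.

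The PD-L2 gene Pdcd1lg2 had 14.3, 13.7 and 14 CPM in control replicates 1, 2 and 3. It had 34, 32 and 58.9 CPM in luteolin replicates 1, 2 and 3. The control libraries were nearly level, and luteolin replicate 3 was well above the other luteolin libraries. Pdcd1lg2 rose from 14 ± 0.289 to 41.6 ± 15 CPM (SD, n = 3 each), and its log2 fold change was 1.57 (standard error 0.27, 95% interval 0.93 to 2.21, adjusted p = 0.048 in edgeR's test). Its call was close to the threshold. Without luteolin replicate 3 the log2 fold change was 1.19 with an adjusted p of 0.0574 in edgeR's test. With no filter on low counts the adjusted p was 0.0579. When a control library or luteolin replicate 1 was omitted, the adjusted p was 0.133 to 0.264. In each of these omissions 0 genes were higher and 0 lower at an adjusted p under 0.05 over all tested genes.

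**Figure D1:**
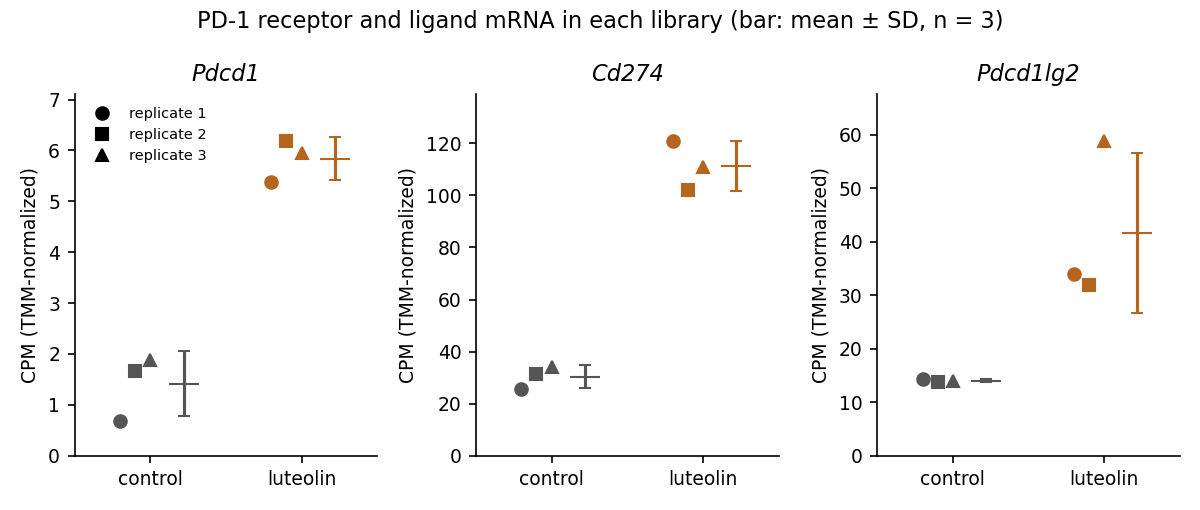
CPM (TMM-normalized, linear axes from 0) of Pdcd1, Cd274 and Pdcd1lg2 in the 3 control and 3 luteolin libraries, with symbols for the replicate number and bars for mean ± SD (n = 3). Every luteolin library lies above every control library for all 3 genes, and luteolin replicate 3 stands above the other luteolin libraries for Pdcd1lg2 at 58.9 CPM.

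The log2 fold changes of the 3 genes were positive in all 45 values from 15 other settings, which are 7 other analyses, 6 omissions of a library, and offsets or a division by 4 that were added after the data had been seen. They ranged from 1.67 to 2.30 for Pdcd1, from 1.71 to 1.96 for Cd274 and from 1.19 to 1.74 for Pdcd1lg2. The adjusted p was under 0.05 in 2 of 15 settings for Pdcd1, 10 of 15 for Cd274 and 8 of 15 for Pdcd1lg2, and the unadjusted p in 15 of 15 for each. Over all genes, adjusted calls ran from 0 without a control library or luteolin replicate 1 to 1886 higher and 1311 lower in voom. Leaving aside the offsets and the division by 4, genes with an unadjusted p under 0.05 ran from 1907 of 15530 (without control replicate 2) to 5483 of 14963 (voom).

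**Figure D2:**
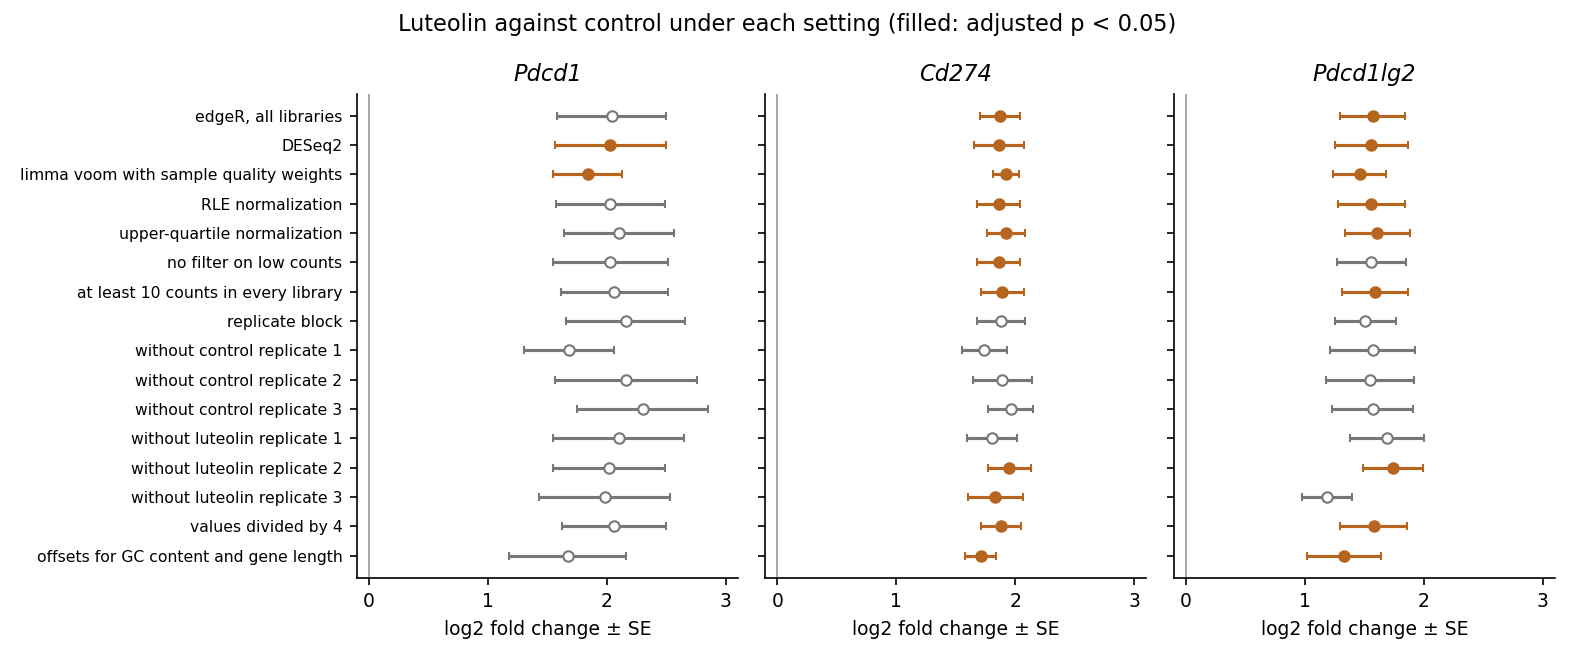
Log2 fold change (luteolin against control) ± standard error of the 3 genes under edgeR with all libraries and under 15 other settings, one row a setting; filled points have an adjusted p under 0.05. The points for Cd274 stay between 1.71 and 1.96, and the lowest point for Pdcd1lg2, 1.19, is the setting without luteolin replicate 3.

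Levels of different genes were compared as CPM per kilobase of exon (GENCODE M21, GRCm38), with 1930 bases for Pdcd1, 3622 for Cd274 and 1961 for Pdcd1lg2. In the control group the levels were 8.39 ± 1.21 CPM per kilobase for Cd274, 7.16 ± 0.148 for Pdcd1lg2 and 0.733 ± 0.332 for Pdcd1 (SD, n = 3). In the luteolin group they were 30.7 ± 2.67, 21.2 ± 7.65 and 3.02 ± 0.217 CPM per kilobase. The ligands had a higher level than the receptor in every library, while the order of the ligands was not the same in all libraries. Cd274 was below Pdcd1lg2 in control replicate 1 (7.05 against 7.3 CPM per kilobase), above it in the others, and almost level with it in luteolin replicate 3 (30.6 against 30). As a log2 difference of CPM within a library, Cd274 exceeded Pdcd1lg2 by 1.1 ± 0.24 among controls and 1.47 ± 0.49 among luteolin libraries (SD, n = 3 each). The groups overlapped, and the difference of 0.37 did not exceed the pooled spread of 0.38 (exact two-sided permutation test, p = 0.3). Whether the ligands rose by different amounts was therefore not resolved.

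Differences of log2 CPM within a library were used to set each member beside genes of the cells that carry it. They depend little on how libraries were scaled. A bias by GC content need not cancel in them and was not corrected there. The Spearman correlation of a library's log2 CPM deviations with GC content ran from -0.54 in control replicate 3 to 0.45 in luteolin replicate 2. GC content was 54.6% for Pdcd1, 44.9% for Cd274 and 49.3% for Pdcd1lg2. For 3 libraries against 3 the smallest p of the exact permutation test is 0.1, and over the 12 such comparisons made the smallest adjusted p was 0.3. Comparisons with Ptprc, Cd8a, Cd3e and, for Pdcd1lg2, macrophage genes were chosen after the values were seen.

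T-cell genes were higher beside Pdcd1. All 9 genes of the T-cell list (the CD3 chains, the coreceptors and CD2, CD5 and CD6) passed the study's threshold in the luteolin group, with a median log2 fold change of 2.19, against -0.01 over all tested genes. Cd8a, the CD8 coreceptor chain, reached 10.4 ± 0.949 CPM from 1.84 ± 0.563 (SD, n = 3 each, adjusted p = 0.0331 in edgeR's test). Relative to the mean of the T-cell genes, the log2 level of Pdcd1 was -0.88, 0.18 and 0.57 in control replicates 1, 2 and 3. It was 0.22, -0.47 and 0.16 in luteolin replicates 1, 2 and 3. The groups overlapped, and the difference between them was 0.01 with a pooled SD of 0.6 (exact permutation test, p = 1). It ranged from -0.41 to 0.32 with each library left out, so a change of Pdcd1 per T-cell transcript was not detectable at this spread. Relative to Cd8a the difference was -0.38 and relative to Cd3e 0.19, both with overlapping groups. Relative to Ptprc, which encodes the pan-leukocyte protein CD45 and was itself at 136 ± 11.1 against 61.1 ± 17.7 CPM (SD, n = 3 each), Pdcd1 was at -4.54, -4.57 and -4.49 in luteolin replicates 1, 2 and 3 and at -6.01, -5.06 and -5.39 in the controls. The groups did not overlap, and the luteolin group was higher by 0.95 (exact permutation test, p = 0.1).

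Cd274 was set beside macrophage genes in the same way. Of 8 macrophage genes, 2 passed the study's threshold (3 without control replicate 1, control replicate 3 or luteolin replicate 2, and 5 without luteolin replicate 1), and all 8 had an unadjusted p under 0.05, with a median log2 fold change of 0.88. Their summed level was 1510, 2330 and 1830 CPM in luteolin replicates 1, 2 and 3 and 970 to 1150 CPM in the controls. Relative to their mean, the log2 level of Cd274 was -2.1, -1.62 and -1.57 in control replicates 1, 2 and 3. It was -0.37, -1.25 and -0.76 in luteolin replicates 1, 2 and 3. The groups did not overlap, and the luteolin group was higher by 0.97 with a pooled SD of 0.37 (exact permutation test, p = 0.1), or by 0.76 to 1.2 with each library left out. Relative to Ptprc, Cd274 was higher by 0.69, again without overlap. Which cells carried the Cd274 mRNA was not measured.

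For Pdcd1lg2 the outcome depended on how the cell type genes were summarised. Of 8 dendritic cell genes, 6 passed the study's threshold (4 without control replicate 1), with a median log2 fold change of 1.79. Among them was Flt3, the receptor that drives dendritic cell development, at 5.44 ± 2.6 against 1.1 ± 0.458 CPM (SD, n = 3 each). The list sum was 60.1, 81.7 and 38.1 CPM in luteolin replicates 1, 2 and 3 and 37.5 to 45.6 CPM in the controls. Zbtb46, a dendritic cell transcription factor, held 21.4 CPM of the sum in luteolin replicate 3 and was at 26.9 to 36.3 CPM in the controls. Relative to the mean of these genes, the log2 level of Pdcd1lg2 was 3.56, 2.95 and 2.96 in control replicates 1, 2 and 3. It was 2.86, 2.19 and 4.55 in luteolin replicates 1, 2 and 3. The difference of 0.04 was small beside the pooled SD of 0.9 (exact permutation test, p = 1). Against the summed CPM of the list the difference was 1.02, without overlap of the groups (exact permutation test, p = 0.1). Relative to macrophage genes and to Ptprc, Pdcd1lg2 differed by 0.6 and 0.32, with overlapping groups.

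**Figure D3:**
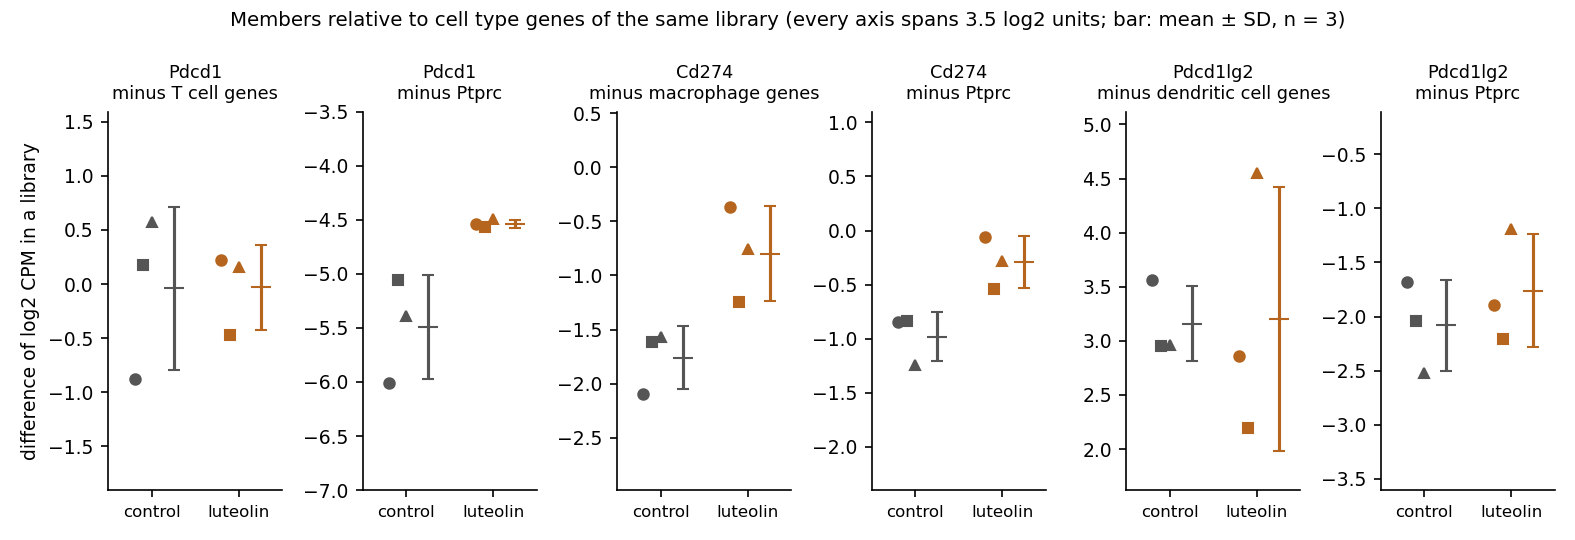
Log2 CPM of each member minus that of cell type genes in the same library (mean log2 CPM of the T-cell, macrophage or dendritic cell list, or Ptprc), for 3 control and 3 luteolin libraries, with mean ± SD; each axis spans the same range in log2 units. The groups are apart for Cd274 in both panels and for Pdcd1 against Ptprc, and overlap for Pdcd1 against T-cell genes (difference 0.01) and for Pdcd1lg2.

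Genes of several other cell types were higher in some or all luteolin libraries. The summed level of neutrophil genes was 76.6 to 181 CPM in the luteolin libraries and 18.7 to 21.2 CPM in the controls. Csf3r, the receptor for G-CSF, had the highest mean of the list (67.9 ± 40.4 against 14.3 ± 2.13 CPM, SD, n = 3 each), S100a9 was at 46.7 ± 28.9 against 1.8 ± 0.692 CPM, and Ly6g and Retnlg overlapped between the groups. NK cell genes summed to 14.2 to 15.2 CPM against 2.38 to 5.77, B-cell genes to 6.63 to 25.1 against 2.7 to 4.9, and fibroblast genes to 2010 to 4980 against 1410 to 1570 CPM. Endothelial genes summed to 165, 265 and 100 CPM in luteolin replicates 1, 2 and 3 against 86.1 to 107 CPM. At the study's threshold 4 of 6 neutrophil, 4 of 4 NK cell, 2 of 5 B-cell, 4 of 6 fibroblast, 2 of 6 endothelial and 8 of 9 keratinocyte genes were higher, and 0 of 9 hepatocyte genes. Without luteolin replicate 2 the counts for neutrophil, NK cell, B-cell, fibroblast and endothelial genes were 4, 4, 1, 3 and 0. When any 1 library was omitted, B-cell counts ran from 1 to 3 and endothelial counts from 0 to 3, and the hepatocyte count was 7 without control replicate 2, the control with Alb at 60.3 CPM. The part of these cells in the levels of the 3 genes was not tested.

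Downstream of PD-1, the transcripts of T-cell signalling proteins were mostly higher, and those of the phosphatases did not pass the study's threshold. Of 14 tested genes, 8 were higher and 0 lower at the study's threshold, and 4 reached an adjusted p under 0.05 in edgeR's test. The median log2 fold change was 1.57, and the count without luteolin replicate 2 was again 8. Lcp2, the adaptor SLP-76, rose from 25.6 ± 1.5 to 69 ± 15.6 CPM (SD, n = 3 each), and Vav1, an exchange factor, from 17 ± 0.964 to 50.6 ± 16.7 CPM. The kinase gene Zap70, named after its values were seen, was also called, with a log2 fold change of 3.03. Ptpn11, which encodes SHP-2, the main phosphatase recruited by PD-1, was at 253, 238 and 81.4 CPM in control replicates 1, 2 and 3. It was at 192, 56.1 and 210 CPM in luteolin replicates 1, 2 and 3. The groups overlapped widely (log2 fold change -0.32, standard error 0.58, adjusted p = 0.811 in edgeR's test), and without luteolin replicate 2 the value was 0.09. Ptpn6, which encodes SHP-1, had a log2 fold change of 0.72 (adjusted p = 0.208 in the same test). It was at 65.7, 56.4 and 51.3 CPM in the controls and 75.8, 136 and 72.4 CPM in the luteolin libraries. Its groups thus did not overlap, with the luteolin group higher, as for 15.9% of all tested genes.

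The alternative partners of the ligands gave 0 calls among 2 genes in edgeR, with 0 at an unadjusted p under 0.05, 0 in DESeq2 and 1 in voom. Cd80, a costimulatory ligand that also binds PD-L1, was at 1.36, 1.98 and 4.42 CPM in the controls and 6.66, 2.24 and 3.69 CPM in luteolin replicates 1, 2 and 3, with overlapping groups. Rgmb, a BMP coreceptor that binds PD-L2, was at 53.2 ± 2.51 against 57.9 ± 6.98 CPM (SD, n = 3 each), and its log2 fold change was -0.12.

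Among 17 tested regulators of Pdcd1 transcription, 10 were higher and 0 lower at the study's threshold, with 1 adjusted call in edgeR and a median log2 fold change of 1.38. Without luteolin replicate 2 the count was 6. Prdm1, which encodes the repressor Blimp-1, was the adjusted call, at 6.32, 8.25 and 8.82 CPM in the controls and 32.5, 28.7 and 18.1 CPM in luteolin replicates 1, 2 and 3, with a log2 fold change of 1.76 (adjusted p = 0.0437 in edgeR's test). Fos, a subunit of AP-1, had a log2 fold change of 1.75 (adjusted p = 0.0723 in the same test). The exhaustion factor Tox, named after its values were seen, was near the floor, with 10, 4 and 13 counts in the controls and 0, 82 and 34 counts in luteolin replicates 1, 2 and 3, and its groups overlapped. Tox2 did not pass the filter. Rbpj, the most abundant of the list, differed little (408 ± 150 against 413 ± 50.9 CPM, SD, n = 3 each), and the sign of its difference changed with the normalization.

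Of 12 genes from interferon-γ to PD-L1, 5 were higher and 0 lower at the study's threshold, with a median log2 fold change of 0.79. The count was 2 without luteolin replicate 2 and 3 without control replicate 3. Ifng, the cytokine itself, was at 0.157, 0.618 and 0.202 CPM in the controls and at 4.77, 2.98 and 2.52 CPM in luteolin replicates 1, 2 and 3. Its lowest luteolin value was well above the highest control (log2 fold change 3.39, standard error 0.68, adjusted p = 0.0665 in edgeR's test). Irf1, a transcription factor of the interferon response and the most abundant of the list, was at 179, 158 and 159 CPM in the controls and 195, 230 and 175 CPM in luteolin replicates 1, 2 and 3. The groups overlapped, its log2 fold change was 0.27 (95% interval -0.095 to 0.642), and with offsets for GC content and gene length it was -0.02.

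Other inputs to Cd274 transcription gave 1 call among 8 genes at the study's threshold, with a median log2 fold change of 0.05. That share of 12.5% was close to the 11.3% of all tested genes higher at this threshold. That gene was Egfr, a growth factor receptor, at 25.4, 56.3 and 14.8 CPM in luteolin replicates 1, 2 and 3 and 4.94 to 7.26 CPM in the controls, in the same order over the luteolin libraries as the keratinocyte sum, whose part was not tested. Myc, Hif1a and Rela did not pass it, and Nfkb1, a subunit of NF-κB, had a log2 fold change of 0.20. Ctnnb1, which encodes β-catenin, had 0.06, and its sign changed with the GC offsets.

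Of 10 genes for the induction of Pdcd1lg2, 4 were higher and 0 lower at the study's threshold, with a median log2 fold change of 1.02. The count was 2 without control replicate 3. Csf2rb, the common chain of the GM-CSF receptor, rose from 60.5, 50.6 and 51.3 CPM to 133, 172 and 124 CPM, with a log2 fold change of 1.40 (adjusted p = 0.0331 in edgeR's test). Il4ra, the interleukin-4 receptor chain, had a log2 fold change of 0.94 (adjusted p = 0.0776 in the same test). Stat6, the most abundant of the list, was at 215 ± 12.9 against 251 ± 5.68 CPM (SD, n = 3 each, adjusted p = 0.385 in edgeR's test). Every luteolin library lay below every control for Stat6, as for 12.8% of all tested genes. Il4 itself was at 9, 34 and 5 counts in the controls and 23, 19 and 32 counts in the luteolin libraries, where no difference was detectable. Il13, named after its values were seen, passed the study's threshold on 8, 0 and 4 counts in the controls and 13, 64 and 25 counts in the luteolin libraries.

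The genes that act on the PD-L1 protein after its synthesis did not share the change of its mRNA. Of 15 such genes 0 passed the study's threshold or an adjusted p under 0.05 in edgeR, and 2 had an unadjusted p under 0.05, both lower. Over all tested genes the study's threshold was passed by 11.3% higher and 1.52% lower, and the adjusted threshold by 1.34% and 0.187%. The median log2 fold change was -0.03, against -0.01 over all tested genes. DESeq2 called 0 higher and 1 lower, and voom 0 higher and 4 lower. Over all 14963 genes voom called 1886 higher and 1311 lower. B3gnt3, a glycosyltransferase that modifies PD-L1, was at 97.2, 100 and 99.3 CPM in the controls and 69.5, 54.3 and 61.2 CPM in luteolin replicates 1, 2 and 3, with a log2 fold change of -0.68 (adjusted p = 0.0772 in edgeR's test). Cmtm4, a membrane protein that protects PD-L1 from degradation, had -0.39 (adjusted p = 0.237 in the same test). Its better known relative Cmtm6, named after its values were seen, had 0.19. Stt3a, a subunit of the enzyme that adds N-glycans and the most abundant of the list, was at 281 ± 131 against 255 ± 167 CPM (SD, n = 3 each), and the sign of its difference changed with the library left out.

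**Figure D4:**
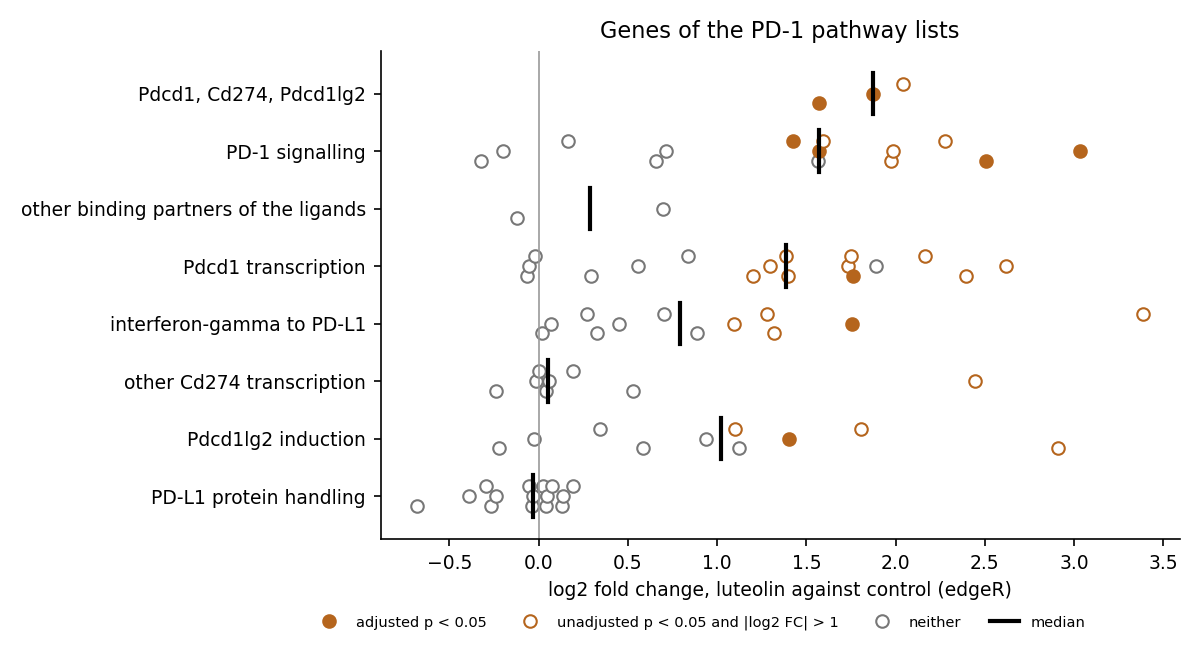
Log2 fold change (luteolin against control, edgeR, 3 libraries a group) of the 3 members and of each tested gene in 7 lists for the PD-1 axis, one point a gene, with black lines at medians; filled points have an adjusted p under 0.05 and open brown points pass only the study's threshold. Among the 7 lists the medians run from 1.57 for PD-1 signalling to -0.03 for PD-L1 protein handling.

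Over the 6 libraries, the profiles most like each member were found as the smallest root mean square difference of centred log2 CPM among 13274 other genes with a mean of at least 1 CPM. This measure gathers genes with the same fold change as well as the same order of libraries. For Cd274 they were Serpina3f (0.10), Serpina3g (0.10), Spata13 (0.13) and Bst1 (0.13). Serpina3g, a protease inhibitor, was at 34.2, 51.2 and 56.5 CPM in the controls and 176, 158 and 173 CPM in luteolin replicates 1, 2 and 3, but it belongs to a cluster of near-identical genes among which the counting could have split reads. For Pdcd1 the nearest were Egln3 (0.22), Klrk1 (0.22), Car4 (0.22) and Ifi47 (0.22). Klrk1, which encodes the receptor NKG2D of NK and CD8+ T cells, was at 1.6, 3.2 and 3.95 CPM in the controls and 9.37, 9.04 and 9.59 CPM in luteolin replicates 1, 2 and 3, and like Pdcd1 was lowest in control replicate 1. For Pdcd1lg2 the nearest included Tfpi (0.16), Rem1 (0.18) and Ms4a8a (0.19), all highest in luteolin replicate 3. The members were not each other's nearest genes among the 13274, where genes with a similar rise lie near each other. By distance from Pdcd1, Cd274 ranked 61 and Pdcd1lg2 430. From Cd274, Pdcd1lg2 ranked 146 and Pdcd1 161. From Pdcd1lg2, Cd274 ranked 68 and Pdcd1 956. The difference was 0.363 between the ligands, 0.375 between Pdcd1 and Cd274 and 0.624 between Pdcd1 and Pdcd1lg2.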

How the data were processed

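The RNA-seq data comprise 6 libraries of H22 tumours, 3 per group, and 0 columns were left out. The authors deposited 1 whole number per gene symbol and library, which was treated as an estimated count, since 44.8% of the values from 1 to 40 are multiples of 4. The submitters' processing notes name bcl2fastq 2.0, HISAT2, StringTie and DESeq2 and the builds mm39 and rn6, without their roles. Sequences and exon lengths came from GRCm38 and were matched by symbol. The labels and the methods name different RNA extraction and library kits.

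Groups were compared in R 4.3.3 with edgeR 4.0.16 (TMM, filterByExpr, quasi-likelihood test, no covariates), with Benjamini-Hochberg adjustment over 14963 genes. Log2 CPM has a prior count of 2. Alternatives were DESeq2 1.42.0, voom of limma 3.58.1 with sample quality weights, other normalizations (RLE, upper quartile) and filters, a block for the replicate number, and the omission of each library in turn. Division by 4 and offsets for GC content and gene length were added after the data had been seen. The fit was tested on simulated data. GENCODE M21 gave exon lengths and GC content for 21053 of 21720 symbols.

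The members and the 7 pathway and 10 cell type lists were chosen with earlier results of these data known. Named genes are the members, in each list the 2 genes with the smallest p and the 1 with the highest mean (3 for hepatocytes), and the 4 nearest profiles per member. Other genes were named, and the promoter motifs chosen, after values were seen. Annotation and counting settings are not given in the sources used here. Some genes that the rule names are not reported here.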

Additional observations from a re-analysis of the deposited data

How the results depend on the processing

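The 3 genes kept a higher level in the luteolin group in all 45 values from the alternative settings. With each library left out, log2 fold changes ranged from 1.68 to 2.30 for Pdcd1, 1.74 to 1.96 for Cd274 and 1.19 to 1.74 for Pdcd1lg2. The call of Pdcd1 was gained in DESeq2 (2.03) and in voom with sample weights (1.84), and that of Pdcd1lg2 was lost with no filter on low counts (1.56). With the replicate number as a block the log2 fold change was 1.88 for Cd274 (adjusted p = 0.0523 in edgeR's test) and 1.51 for Pdcd1lg2 (adjusted p = 0.0963), and 34 genes were higher and 1 lower. The number did not pair the libraries, with correlations of deviations of -0.2, -0.09 and 0.06, and of the 6 libraries only luteolin replicate 3 was most like the library of its own number in the other group.

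Over all genes at an adjusted p under 0.05, DESeq2 gave 1543 higher and 415 lower, voom 1886 and 1311, at least 10 counts in every library 345 and 47, division by 4 327 and 46, and the GC and length offsets 670 and 680. Leaving out a library gave 0 to 276 higher and 0 to 36 lower. Lower genes at the study's threshold numbered 498 in voom, 447 with the offsets and 140 to 305 with a library left out. The listed pathway genes higher at that threshold stayed at 20 to 28 with a library left out. Without 1 library the differences within a library ranged from -0.41 to 0.32 for Pdcd1 against T-cell genes, 0.76 to 1.2 for Cd274 against macrophage genes, -0.63 to 0.55 for Pdcd1lg2 against dendritic cell genes (1.02 with the summed CPM of the list) and 0.19 to 0.65 between the ligands.

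Of 57 other named genes, 5 changed sign in 13 of 852 values. Rbpj was at 0.23 in voom, 0.02 with upper-quartile normalization, 0.00 with at least 10 counts in every library and -0.19 to 0.28 with a library left out. Irf1 and Ctnnb1 were at -0.02 and -0.17 with the offsets. With a library left out Ctnnb1 ranged from -0.02 to 0.12, Ptpn11 from -0.69 to 0.09 and Stt3a from -0.22 to 0.78. The cause was not tested. Depth limits scarce genes such as Pdcd1, Ifng, Il4, Il13 and Tox, whose low counts may stand for fewer read pairs.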

Other observations

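Within libraries, Cd274 was also set beside Irf1, a comparison chosen after the values were seen. Cd274 minus Irf1 was -2.81, -2.32 and -2.22 on the log2 scale in the controls, replicates 1 to 3, and -0.69, -1.18 and -0.66 in the luteolin libraries in the same order, without overlap (difference 1.61, exact two-sided permutation test, p = 0.1, adjusted p = 0.3 over 12 comparisons).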
